A study of Caenorhabditis elegans with 2 samples.

Results

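The nuclear pore and nuclear transport genes of Caenorhabditis elegans are described here by the binding of the forkhead transcription factor FKH-8 near their 5′ ends in a chromatin immunoprecipitation (ChIP-seq) experiment. They were taken by name, as every nuclear protein-coding gene of the WBcel235 annotation whose symbol starts with npp-, imb-, ima-, xpo- or ran-, which gave 40 of 19973 genes: 26 nucleoporins (npp) and 14 importins, exportins and Ran-cycle genes. The material was whole L1 larvae of strain OP652, unc-119(tm4063) III; wgIs652, of mixed sex, taken 6 hours after synchronization as starved L1 larvae. Every animal carried the transgene wgIs652, a C-terminal GFP-FLAG fusion of FKH-8, in the unc-119 mutant background, and this was 1 transgenic line, with no other genotype, stage or treatment to compare. There were 2 biological replicates of this 1 group. The sample description names an antibody against GFP, while the antibody field reads fkh-8, and a control named in the labels was not analysed here. Because whole animals were used, the cells in which a site was occupied are not known, and strong binding in few cells cannot be told apart from weaker binding in many.

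Nuclear pores are large protein channels that cross the nuclear envelope. A scaffold of inner-ring and Y-complex proteins, anchored by membrane proteins, holds phenylalanine-glycine (FG) repeat proteins in the central channel, with a basket on the nuclear side and filaments on the cytoplasmic side. Importins and exportins carry proteins and RNA through the channel, and the GTPase Ran, kept in its GTP form in the nucleus by the exchange factor RCC1 and in its GDP form in the cytoplasm by RanGAP, sets the direction of transport. FKH-8 is known as a regulator of genes of sensory cilia, while nuclear transport is a general process of cells with a nucleus. Whether each gene of the set is needed in every cell type was not examined here.

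The authors' reproducible list, kept by the irreproducible discovery rate (IDR), which compares replicates, held 4963 peaks on the ce11 build. Genes count as bound here where a summit from that list fell between 1000 bp upstream and 200 bp downstream of the annotated 5′ end, and each bound gene took its highest peak by the deposited signal value, whose scaling is not stated and which ranged from 94.9 to 2102 in that list. Rank 1 is the peak with the highest signal. Sequences are shown at 4 bound genes, so that the letters under the summits of scaffold, carrier and Ran genes can be compared. Their signals run from the highest of the bound genes to the median, and other bound genes with signals in that range are not printed. The printed sequences are the bases up to 60 bp on either side of the summit, cut short where an annotated exon began. They are read 5′ to 3′ on the strand of the named gene, from the RefSeq genome of the same assembly. Capitals mark GACGC in either orientation (GCGTC on the printed strand), an alternative core motif described for some forkhead factors, and none of the other letters searched were found in them.
npp-3, chrII:11874819-11874939, minus strand: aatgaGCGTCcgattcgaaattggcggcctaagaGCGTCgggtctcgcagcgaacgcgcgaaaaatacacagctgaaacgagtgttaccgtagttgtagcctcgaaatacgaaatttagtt
npp-8, chrIV:1595946-1596066, minus strand: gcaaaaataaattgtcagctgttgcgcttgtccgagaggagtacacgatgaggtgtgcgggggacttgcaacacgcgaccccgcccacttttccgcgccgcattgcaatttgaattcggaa
ran-1, chrIII:10748171-10748263, minus strand: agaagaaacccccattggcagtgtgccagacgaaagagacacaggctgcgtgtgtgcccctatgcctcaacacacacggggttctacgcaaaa
imb-2, chrII:14365358-14365478, plus strand: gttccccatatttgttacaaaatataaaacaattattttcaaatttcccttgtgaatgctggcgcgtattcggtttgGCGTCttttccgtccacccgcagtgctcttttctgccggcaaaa
The stretch at npp-3 held 2 matches and that at imb-2 held 1, while those at npp-8 and ran-1 held none.

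Of the 40 genes, 19 were bound (47.5%, exact 95% binomial interval 31.5 to 63.9%), against 13.8% of all coding genes (2752 of 19973) and 17.1% of the 10896 coding genes that have a gene-class symbol. The 26 nucleoporin genes held 10 bound genes (38.5%, interval 20.2 to 59.4%), and the 14 genes of importins, exportins and the Ran cycle held 9 (64.3%, interval 35.1 to 87.2%). These intervals cover the counting of genes only, and genes that share a promoter are not independent. The share depended on how a summit was given to a gene. When each summit went to the single gene with the nearest 5′ end, 10 of the 40 were bound, 25% against 18.1% of all coding genes at any distance and against 10.5% inside the same window. When only summits in the window of 1 coding gene were used, an alternative added after the data were seen, 8 were bound (20%) against 7.65% of coding genes. The bound share of the members was above that of all coding genes under each of these rules, by the smallest margin for the nearest gene at any distance. No test of this difference was made.

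**Figure D1:**
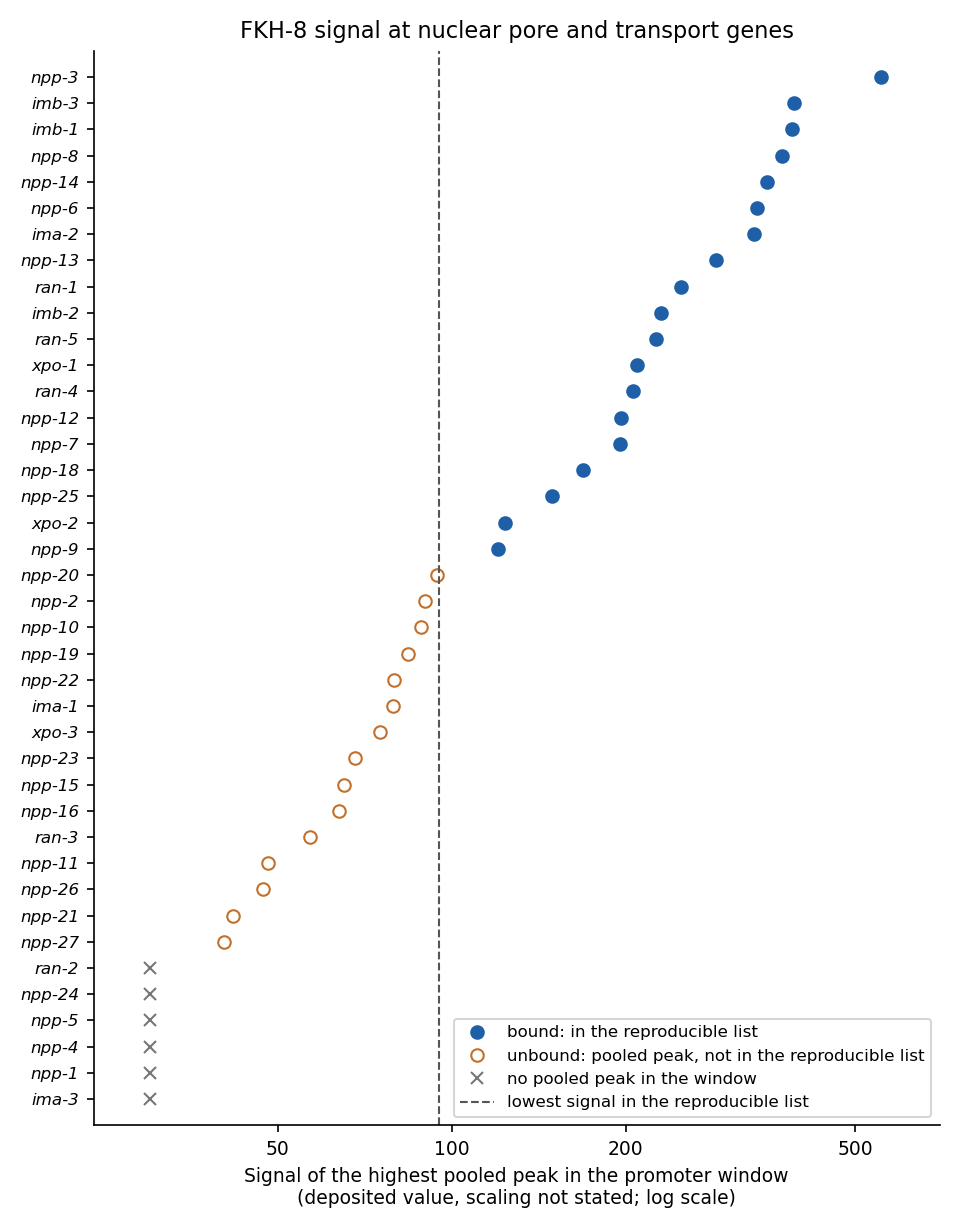
Highest peak of the pooled list with its summit in the promoter window, for each of the 40 genes; the horizontal axis is the deposited signal on a log scale, filled points are the 19 bound genes, open points the 15 unbound genes with a pooled peak that is not in the reproducible list, crosses (placed at an arbitrary position) the 6 with none, and the dashed line the lowest signal of the reproducible list, 94.9. Signals run from 553.8 at npp-3 to 40.4 at npp-27, and that of npp-20 lies just left of the line.

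Of the inner-ring scaffold genes, 3 of 4 were bound (exact interval 19.4 to 99.4%), against 13.8% of all coding genes. The parts of the pore hold few genes each, and differences between them were not tested. The highest signal of all 40 genes was at npp-3 (II:11865431 to 11874788, minus strand), the homologue of NUP205, with 553.8 at rank 247 of 4963 and a summit 91 bp upstream. Its peak ranked 223 in replicate 1, with a signal of 275.1, and 264 in replicate 2, with 280.6, so that both replicates placed it near the same point. The homologue of NUP155, npp-8 (IV:1567921 to 1595824, minus strand), had a signal of 372.8 at rank 654, with the summit 182 bp upstream, and ranked 694 and 669 in replicates 1 and 2. The homologue of NUP93, npp-13, had 287.2 at rank 1074. It was less even between the replicates, at rank 1566 in replicate 1 and 830 in replicate 2. The fourth inner-ring gene, npp-19, the homologue of NUP35, had no reproducible peak in its window, but a pooled peak lay 176 bp upstream with a signal of 83.9, rank 5704 of 17956.

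The Y complex is the outer scaffold of the pore. Of its 8 genes, 2 were bound (25%, exact interval 3.19 to 65.1%), an interval that covers the 13.8% of all coding genes. The 2 bound genes were npp-6 and npp-18. The first, the homologue of NUP160, had a signal of 337.5 at rank 802, and the second, the homologue of SEH1, 168.9 at rank 2380. At npp-6 the summit lay 404 bp upstream, inside an intron of the neighbouring gene spd-5, which encodes a scaffold protein of the centrosome, and was closer to the 5′ end of spd-5 (229 bp) than to that of npp-6. Its ranks were 783 in replicate 1 and 975 in replicate 2. At npp-18 the replicates differed in rank, 3018 and 1903. Of the 6 unbound members of the complex, 5 had a pooled peak in the window below the reproducible list: npp-20 (the homologue of SEC13, 94.3), npp-2 (NUP85, 89.8), npp-10 (NUP98 and NUP96, 88.3), npp-23 (NUP43, 68.0) and npp-15 (NUP133, 65.1). Those of npp-20, npp-2 and npp-10 lay just under the lowest reproducible signal of 94.9, with pooled ranks of 5009, 5297 and 5390. With the 4963 highest peaks of replicate 2 alone, npp-20 and npp-10 counted as bound, and with those of replicate 1 neither did. The remaining member, npp-5, the homologue of NUP107, had no pooled peak in the window and only a weak one in replicate 2, with a signal of 19.2 at rank 16855 of 21452.

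None of the 3 genes of the central channel was bound (upper limit of the exact interval 70.8%), against 13.8% of all coding genes. The count is too small to tell them from other genes. The 3 genes encode FG-repeat proteins. A pooled peak of 48.1 lay at npp-11, the homologue of NUP62. At npp-1 and npp-4, the homologues of NUP54 and NUP58, there was no pooled peak. The membrane ring had 2 of 3 genes bound, npp-12, the homologue of NUP210, with a signal of 196.6, and npp-25, the homologue of TMEM33, with 148.9. In replicates 1 and 2 the first ranked 2015 and 1928 and the second 2203 and 3131. The third, npp-22, the homologue of NDC1, had a pooled peak of 79.3. On the cytoplasmic face npp-14, the homologue of NUP214, had a signal of 351.1 at rank 748, and npp-9, the homologue of NUP358, had 120.5 at rank 3744, the lowest of the bound genes. Their ranks in replicates 1 and 2 were 630 and 765 for npp-14 and 4625 and 3665 for npp-9. The third gene of that face, npp-24, the homologue of NUP88, had no peak in its window in any list. In the nuclear basket npp-7, the homologue of NUP153, was bound with 195.4 (ranks 2054 and 1982 in the replicates), whereas npp-16 and npp-21, the homologues of NUP50 and TPR, had pooled peaks of 63.8 and 41.9. For npp-26 and npp-27, which were put in no part of the pore, the pooled signals were 47.1 and 40.4.

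**Figure D2:**
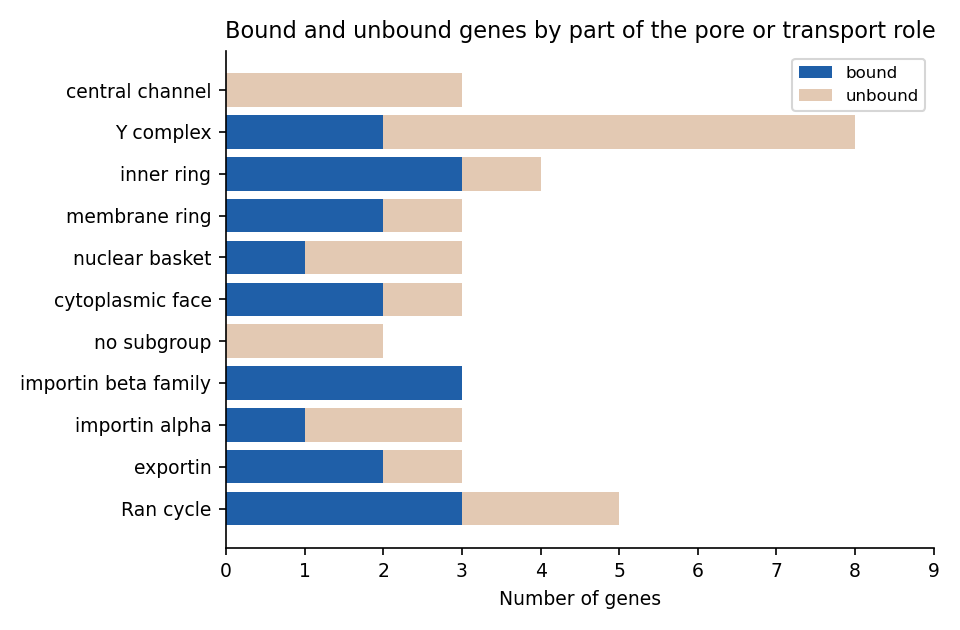
Number of bound (dark) and unbound (light) genes in each part of the pore and each transport role; the horizontal axis counts genes. All 3 imb genes, labelled importin beta family and counted apart from the exportins, were bound. None of the 3 central channel genes was, and most groups hold 3 to 5 genes. Of all coding genes 13.8% were bound, and differences between groups were not tested.

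All 3 imb genes, which encode importins of the beta family, carriers that bind FG repeats and Ran, were bound. The lower limit of the exact interval was 29.2%, against 13.8% of all coding genes bound. Exportins are counted apart from the imb genes below. The signal was 391.3 at imb-3 (I:310981 to 314989), a homologue of importin 5, at rank 592, 388.1 at imb-1 (I:4920683 to 4926486), importin beta 1, at rank 601, and 230.7 at imb-2 (II:14365701 to 14373901), transportin, at rank 1532. For imb-3 the ranks were 481 in replicate 1 and 874 in replicate 2, for imb-1 they were 550 and 642, and for imb-2 1428 and 1736. Each of the 3 thus ranked higher in replicate 1, by different amounts. Importin alpha, the adaptor that recognizes the classical nuclear localization signal, is encoded by 3 genes, of which only ima-2 was bound, with 333.3 at rank 811 and a summit 335 bp upstream, ranking 753 and 880 in replicates 1 and 2. In ima-1 a pooled peak of 79.1 lay 310 bp upstream. The highest peak in its window ranked 4958 in replicate 2, at the same position, and 7577 in replicate 1, where it lay elsewhere in the window, so that ima-1 entered the 4963 highest peaks of replicate 2 only. At ima-3 no pooled peak was listed, and replicate 2 had a peak of 26.0 at rank 10611.

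Of the exportins, xpo-1, the homologue of CRM1 that exports proteins with leucine-rich signals, and xpo-2, the homologue of CAS that returns importin alpha to the cytoplasm, were bound, with signals of 209.3 and 123.9. The peak at xpo-1 was the least even of the 19 between the replicates, with rank 3379 and a signal of 64.4 in replicate 1 and rank 1196 and a signal of 139.0 in replicate 2. For xpo-2 the ranks were 3609 and 3299. The third, xpo-3, the homologue of the tRNA carrier exportin-t, had a pooled peak of 75.2 at rank 6528. A further exportin, xpo-7, has that symbol in RefSeq but is listed as C35A5.8 in the annotation used, and so is not among the 40. It was bound too, with a signal of 211.6 at rank 1717 and a summit 204 bp upstream, shared with hda-11, and with it 20 of 41 genes were bound. The homologue of RAE1, once named npp-17, is listed as rae-1 and likewise lies outside the rule.

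In the Ran cycle 3 of 5 genes were bound (exact interval 14.7 to 94.7%), against 13.8% of all coding genes. The gene of the GTPase itself, ran-1 (III:10746581 to 10747728), had a signal of 249.1 at rank 1354, with ranks of 1636 and 1200 in replicates 1 and 2. At ran-5, a gene named for its association with Ran, the signal was 226.0 at rank 1591, and at ran-4, the homologue of NTF2 that carries Ran into the nucleus, it was 205.8 at rank 1802. In replicates 1 and 2, ran-5 ranked 1337 and 1850, and ran-4 ranked 1939 and 1868. The genes of both regulators of the nucleotide state were unbound: ran-3, which encodes RCC1, had a pooled peak of 56.8 288 bp upstream, and ran-2, which encodes RanGAP, had no peak in its window in the pooled list or in either replicate. The gene upstream of ran-2 on the same strand is npp-15, at a distance of 479 bp.

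The 19 peaks repeated in both replicates. Each had an overlapping peak among the 4963 highest of replicate 1 and of replicate 2, at ranks from 223 to 4625 and from 264 to 3665. The reproducible list is the 4963 pooled peaks of highest signal, and the pooled list was made from these same replicates. This agreement is therefore a description of the members and not a finding about them. The summits of the replicates lay a median of 16 bp and at most 85 bp apart, and 17 of 19 were within 50 bp. The peak ranked higher in replicate 1 at 9 genes and in replicate 2 at 10. With the 4963 highest peaks of replicate 1 alone, 19 of the 40 genes were bound, the same 19, against 13.5% of all coding genes. With those of replicate 2 alone, 22 were bound, the same 19 with ima-1, npp-10 and npp-20, against 13.8%.

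**Figure D3:**
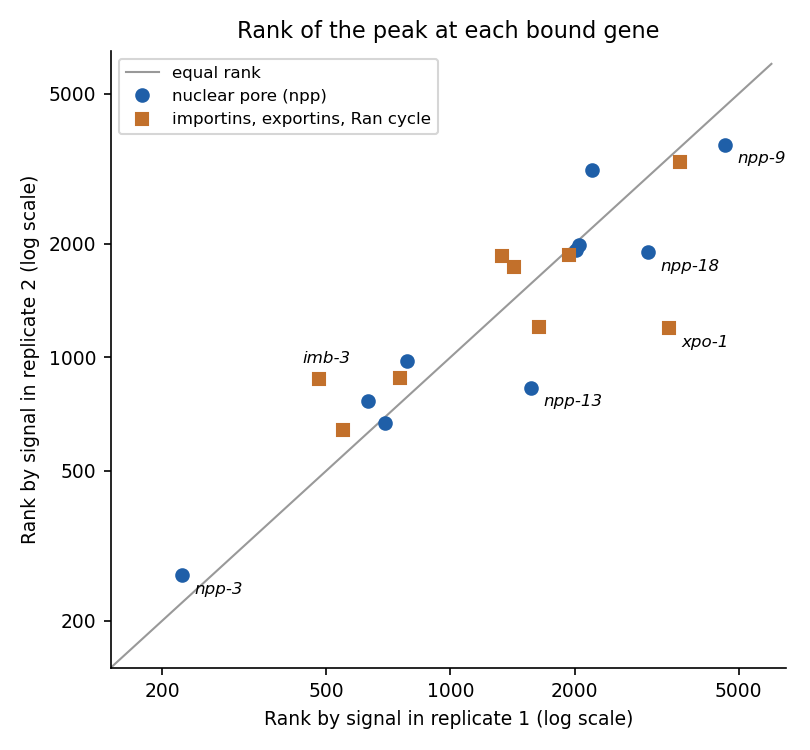
Rank by signal of the peak at each of the 19 bound genes in replicate 1 (horizontal) and replicate 2 (vertical), both on log scales, where a low rank is a high signal; circles are nucleoporin genes, squares are importin, exportin and Ran-cycle genes, and the line marks equal rank. Most points lie near the line, and xpo-1 is farthest below it.

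The bound genes had high but not extreme signals. The median rank of their highest peaks was 1532, against 2018 for all 2752 bound coding genes, and the median signals were 230.7 and 189.3. Of the 19 peaks, 16 (84.2%) were among the 2481 highest peaks of the reproducible list, against 58.6% for all bound genes, and 7 (36.8%) were among the 1000 highest, against 28.2%. With only those 2481 peaks, 16 of the 40 genes were bound (40%) against 8.08% of coding genes, the genes lost being npp-25, npp-9 and xpo-2. The peaks of the 7 highest members, down to rank 811, were 108 to 208 bp wide and the other 12 were 416 bp wide. Narrow peaks were common at such ranks in the whole list, where 70.8% of peaks down to rank 811 and 2.63% of lower peaks were narrower than 416 bp.

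The 21 unbound genes mostly had weaker peaks. In the pooled list, which includes background regions as input for IDR, 15 of the 21 (71.4%) had a peak with its summit in the window, against 18.6% of the 17221 unbound coding genes. Peaks in both replicates were present at 11 of the 21, and the matching share of all unbound coding genes was not counted. With the 9926 highest pooled peaks, 30 of the 40 genes were bound (75%) against 21.3% of coding genes, and with all 17956 pooled peaks 34 (85%) against 29.8%. Only npp-4, npp-24 and ran-2 had no peak in the window in the pooled list or in either replicate. The nearest reproducible summit was a median of 7499 bp from the 5′ end of the 21 unbound genes. It was within 2000 bp at 1 gene, npp-20, where it lay 1615 bp upstream. These distances were not computed for all unbound coding genes. With a wider window, 2000 bp upstream and 500 bp downstream, 20 genes were bound (50%) against 18.8% of coding genes, the gene gained being npp-20. With a narrower one, 500 bp upstream and 100 bp downstream, 18 were bound (45%) against 10.7%, the gene lost being xpo-1.

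All 19 summits lay upstream of the annotated 5′ end, at distances from 89 bp at imb-1 to 850 bp at xpo-1, with a median of 276 bp, against 233 bp for all bound coding genes. A summit upstream is the usual case, since only 138 of the 2752 bound coding genes had their highest summit downstream. Within 300 bp lay 12 of the 19 and within 500 bp lay 17. The shares within these distances were not counted for all bound coding genes. Annotated 5′ ends of worm genes often mark a trans-splice acceptor and not the start of transcription. Between coding genes lay 17 of the 19 summits, with the exceptions of npp-6, in an intron of spd-5, and ran-5, in coding sequence of R12C12.6. The share of all reproducible summits between coding genes was not counted. No reproducible summit lay inside any of the 40 genes (upper limit of the exact interval 8.81%), including npp-8 and npp-13, which are 27904 and 26098 bp long, against 5.46% of coding genes with a summit inside. At npp-12 and xpo-1 a second, lower summit of the reproducible list lay in the window, with signals of 97.8 and 114.4. Both of these peaks overlapped the higher peak of the same gene. In each replicate, the highest overlapping peak was the same for both, so a separate replicated site is not shown.

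**Figure D4:**
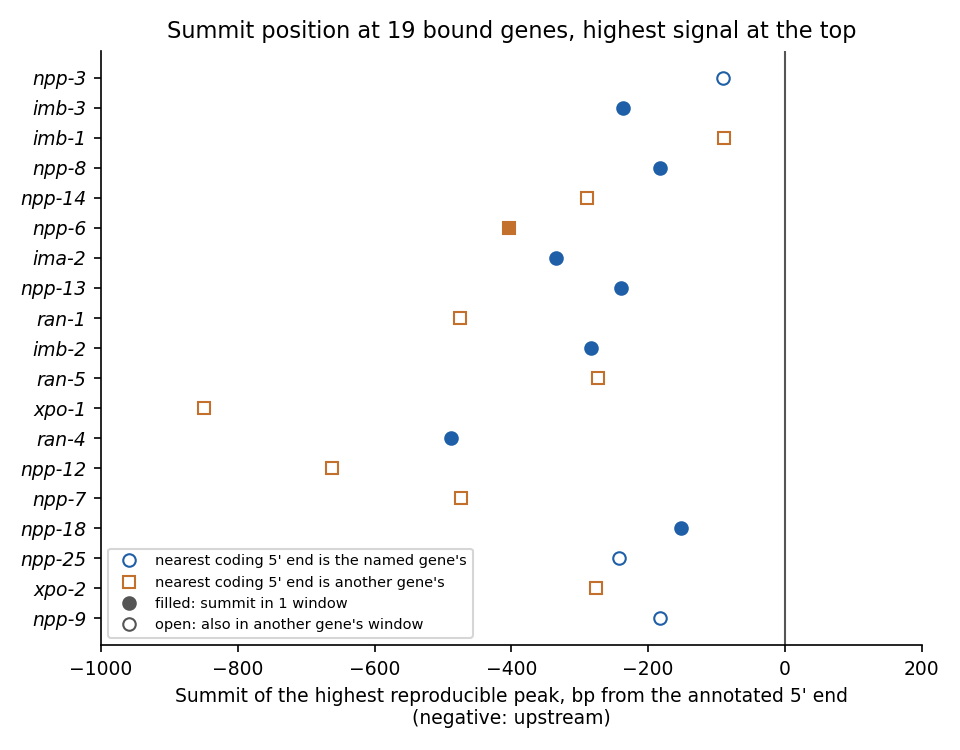
Distance in bp of the summit of the highest reproducible peak from the annotated 5′ end at the 19 bound genes, ordered by signal; circles mark summits whose nearest coding 5′ end is that of the named gene and squares those nearest to another gene, and open symbols mark summits that also lie in the promoter window of another gene. Summits lie from 89 to 850 bp upstream, and the 2 farthest, at xpo-1 and npp-12, are nearer to another gene.

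Shared promoters were frequent among the bound genes. Of the 19 summits, 11 (57.9%) also lay in the window of another coding gene, against 44.7% for all bound coding genes, and 10 (52.6%) were nearest to the 5′ end of the member, against 76.2%. The summit was unshared and nearest to the member at 7 genes: imb-3, npp-8, ima-2, npp-13, imb-2, ran-4 and npp-18. At npp-3 the same summit was 269 bp upstream of top-2, which encodes topoisomerase II on the opposite strand, and thus nearer to npp-3. At npp-25 it was 317 bp upstream of the mitochondrial ribosomal protein gene mrps-10, and at npp-9 it was 202 bp upstream of F59A2.5 and 907 bp upstream of golg-4. At the other 8 shared summits the partner was closer. The summit of xpo-1 lay 6 bp upstream of uvs-1, that of npp-14 lay 46 bp upstream of cel-1, the gene of the mRNA capping enzyme, and that of ran-5 lay 31 bp downstream of the 5′ end of R12C12.6. The summit of ran-1 was 226 bp from dkc-1, the homologue of the pseudouridine synthase dyskerin, that of npp-7 was 287 bp from unc-40, the netrin receptor gene, and that of npp-12 was 177 bp from T23H2.3. Distances were similar for both partners at imb-1 (89 bp, and 60 bp for mfsd-13.1) and xpo-2 (276 bp, and 227 bp for nol-14). The peak lists do not tell which gene of such a pair a summit belongs to.

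The members were arranged differently from other genes. The nearest coding gene upstream was on the opposite strand and within 1000 bp for 20 of the 40 genes (50%), against 21.3% of coding genes, and the median distance to the upstream coding gene was 524.5 bp against 937 bp. In that head-to-head arrangement 12 of 20 members were bound (60%), against 25% of all coding genes so arranged. With no coding gene within 1000 bp upstream, 5 of 10 were bound (50%) against 11.7%. Behind a gene on the same strand within 1000 bp, 2 of 10 were bound (20%) against 9.18%, these being ima-2 and imb-2. In this species, genes that follow each other closely on 1 strand can be transcribed together as operons, which the annotation used does not mark. Of the 6 members with no pooled peak, 5 were in the same-strand arrangement, against 33.3% of the 14023 coding genes with none, a count too small to read further. The bound members were also longer than the unbound ones, with median gene lengths of 5237 and 3231 bp, against 2027 bp for all coding genes. Bound genes were longer in general, with medians of 2357.5 bp for bound and 1982 bp for unbound coding genes. The part of arrangement and gene length in the bound share of the members was not tested beyond these values.

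**Figure D5:**
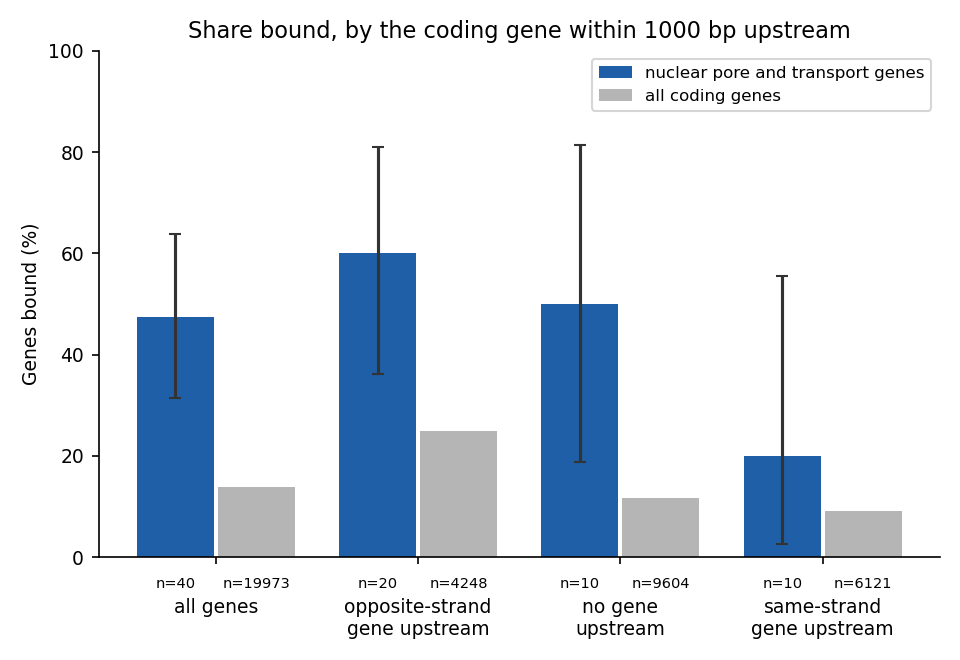
Percentage of genes bound among the 40 nuclear pore and transport genes (dark bars, with exact 95% binomial intervals that cover counting of genes only) and among all coding genes (grey bars), for all genes and by the coding gene within 1000 bp upstream; n is the number of genes. The members' bar is the higher in each class, and the interval reaches below the grey bar in the same-strand class.

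By chromosome, 10 of 13 members on chromosome I were bound, against 17.5% of all coding genes there, 3 of 8 on II (12.4%), 4 of 8 on III (20%), 1 of 8 on IV (13.1%), namely npp-8, and 1 of 3 on V (9.85%), namely xpo-1. No member lies on X. The counts per chromosome are small, with exact intervals of 46.2 to 95.0% for I and 0.316 to 52.7% for IV. Differences between chromosomes were not tested.

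Sequence letters within 100 bp of the 19 summits were compared with those at all 4963 reproducible summits, counting a match on either strand. GACGC was found at 9 of 19 (47.4%, exact interval 24.4 to 71.1%), against 30.7% of all summits and 33.8% of the 2207 summits in promoter windows. Within 200 bp the members' share was the same, while that of all summits was 40.4% and that of summits in promoter windows 42.5%, so that most of the difference was gone, and the interval covers all of these shares. It was present at npp-3, with 3 matches of which 2 lie in the sequence printed above, at imb-2 and npp-7 with 2 each, and at imb-1, imb-3, npp-14, ran-5, xpo-1 and xpo-2 with 1 each. The classical forkhead site GTAAACA was found at 0 of 19 (upper limit of the exact interval 17.6%), against 4.05% of all summits, a share at which fewer than 1 match among 19 would be counted on average. GAGAGA, a comparison motif, was found at 3 of 19 (15.8%, exact interval 3.38 to 39.6%), at ran-1, ran-4 and npp-7. It was found at 34.6% of all summits and 32.7% of those in promoter windows, shares that the interval covers. The X-box, the site of the RFX factor DAF-19 in ciliary genes, was matched at 1 of 19, npp-25, against 3.49%. No 2 of these motifs overlapped at a member's summit, and 7 of the 19 summits held none of them. Neither count was made for all reproducible summits. GC content within 100 bp had a median of 40.3% at the members' summits, from 30.8% at xpo-2 to 51.7% at xpo-1, and 40.8% at all summits. Non-coding genes other than piRNA genes and pseudogenes overlapped 2 of the 19 peaks (10.5%), those of ran-1 and ran-5, against 14.6% of all reproducible peaks.

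Other genes of nuclear transport and the nuclear envelope were bound at 12 of 38 in 3 lists (31.6%, exact interval 17.5 to 48.7%), against the 13.8% of all coding genes. For mRNA export and pore assembly the count was 5 of 14: thoc-5 and thoc-7 of the THO complex (signals of 365.9 and 365.3), hel-1, the helicase UAP56 (255.3), aly-2, an ALY export adaptor (175.8), and nxf-1, the mRNA export receptor (119.7). Of these 5 summits, 4 also lay in the window of another gene, against 44.7% for all bound coding genes. They were those of thoc-7, beside rpl-29, a ribosomal protein gene, and of aly-2, beside daf-10 and rpb-12. Those of hel-1, beside C26D10.4, and of nxf-1, beside C15H11.11, were the others. The pore assembly gene mel-28, the homologue of ELYS, was unbound. In the SUMO pathway, which modifies RanGAP in vertebrates, 4 of 9 genes were bound: the conjugating enzyme gene ubc-9 (243.8), uba-2 of the activating enzyme (153.3), SUMO itself, smo-1 (136.9), and the protease gene ulp-5 (115.7). Of these 4, only the summit of uba-2 also lay in another window, that of vps-25. Of the nuclear lamina and envelope, 3 of 15 genes were bound. Among these was lem-2, a LEM-domain protein of the inner nuclear membrane, whose signal of 632.3 at rank 159 was above that of every one of the 40 members, with a summit 173 bp upstream in no other window. The other 2 were baf-1 (121.8) and emr-1, which encodes emerin (113.2), whereas lmn-1, the lamin gene, was unbound. The summit of baf-1 also lay in the window of tag-342, and that of emr-1 in no other window.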

How the data were processed

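ChIP-seq peak lists from 2 biological replicates of 1 group were used, all on the ce11 build. Per the deposited file lists, 1 list comes from the alignments of each replicate, 1 from both replicates pooled, and 1 holds the peaks that passed the optimal IDR threshold. The signal value per peak is the authors' deposited value in the seventh column of each list. Its scaling, the aligner and the peak caller are not given in the sources used here, and the read depth is unknown, so signals were compared within a list and ranks are given per list. All 4963 reproducible peaks were the pooled peaks with the highest signal. The matching ce10 lists were not used here.

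Gene ends came from Ensembl release 115 and sequence from RefSeq, both for WBcel235, which is the ce11 assembly; no peak ran past a chromosome end. Distances, overlaps and exact Clopper-Pearson 95% intervals were computed with Python 3.11.15, pandas 2.3.3 and SciPy 1.17.1. The rule that gives summits to genes was tested on simulated peaks. Where several replicate peaks overlapped a reproducible peak, the highest was taken.

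The members and lists were chosen with earlier results of these data known. The rule for names covers every member, the bound genes of the related lists, and genes whose window holds a member's summit. No significance test was made: there is 1 group, and shares are set beside those of all coding genes. Replicates come from separate biological samples per the labels. In all, 13 planned and 2 added alternatives were tried.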

Additional observations from a re-analysis of the deposited data

How the results depend on the processing

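The count of bound members was within 1.5 times its value of 19 with the other 2 window sizes, overlap of the peak in place of the summit, transcript starts, the 2481 highest peaks, and either replicate alone. It was not under the other rules. Giving each summit to the nearest 5′ end, at any distance or inside the window, left 10 genes, 6 nucleoporin genes and 4 others. Summits in 1 window only, an alternative chosen after seeing the data, left 8, with 4 of each kind, and 7.65% of coding genes. These 2 rules give a shared summit to 1 gene or to none by construction. The 9926 highest pooled peaks gave 30 members, 18 of them nucleoporin genes, and 21.3% of coding genes. All pooled peaks gave 34, 22 and 29.8%. The 2481 highest reproducible peaks gave 8.08% of coding genes. The median rank of the bound genes' peaks, 1532, was 1200 in replicate 2 and 1566 in replicate 1, lists that differ in length. Within 200 bp of the summit 2 summits held an X-box, 5.26% becoming 10.5% of members against 5.32% of all summits, and the counts of the other motifs moved by at most 1. GACGC stayed at 9 summits while its share of all summits went from 30.7% to 40.4%. The bound genes of the related lists, 12, were 9 to 13 with either replicate alone and 17 with the wider window. The unknown read depth limits how the peaks just below the threshold can be read. No paired analysis was possible because the study has 1 group.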
